A study of Drosophila melanogaster with 36 samples.

Results

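The 9 genes described here belong to insulin, TOR and FOXO signalling and to its transcriptional outputs, namely Thor, REPTOR-BP, REPTOR, foxo, InR, chico, Sesn, S6k and Tor. They were taken by gene symbol from the 17610 genes of the count tables. Tor is listed there as mTor, the symbol used below. All 9 have a row, and 8 had enough counts to be tested. RNA came from the larval fat body of Drosophila melanogaster at the third instar, a storage organ for lipid and glycogen that also senses nutrients. The groups were w1118, a common laboratory strain used as the control, and per0, a mutant of the clock gene period, and all larvae were in constant darkness. Samples were taken every 4 h from CT0 to CT32 (CT, circadian time), 9 times in all, with duplicate libraries at each time, which makes 18 for either genotype and 36 altogether. Each library was made from the total RNA of fat bodies of 5 larvae of mixed sex.

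In this pathway, insulin-like peptides bind the receptor InR, which signals through the substrate chico to PI3-kinase and Akt. Active Akt keeps the transcription factor foxo out of the nucleus, and nutrient signals activate TOR complex 1, which phosphorylates S6k and the translation repressor 4E-BP, the product of Thor. When TOR activity is low, REPTOR and its partner REPTOR-BP activate genes of the starvation response, and nuclear foxo does the same for an overlapping set that includes Thor and InR. Sesn encodes a sestrin, a stress-induced inhibitor of TOR complex 1. RNA levels of these genes do not report the phosphorylation by which most of them are controlled.

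Library totals lay between 16948806 and 25110769 counts for w1118 and between 16513757 and 28423768 for per0. Levels are given in CPM, counts relative to the library total after TMM scaling over all 36 libraries. A floor of 3 counts equalled 0.0995 to 0.211 CPM in w1118 and 0.101 to 0.198 CPM in per0, which covers counting error only. The 10 fat body markers summed to 93848 to 513551 CPM in w1118 and 30871 to 487564 CPM in per0, and no more than 1 of them was at 0 in any library. Markers of other organs were also present. They varied widely for midgut (10 genes, 0.806 to 13889 CPM summed in w1118 and 0.620 to 20773 CPM in per0), salivary gland (6 genes, 0 to 1853 and 0 to 12984 CPM) and gonad (12 genes, 1.43 to 746 and 0.0661 to 304 CPM). Salivary gland sums had medians of 0.515 CPM in w1118 and 0.116 CPM in per0. Duplicate B of CT28 held the highest per0 values of salivary gland and gonad. In such bulk samples fewer cells of a type and less RNA per cell cannot be told apart. One per0 library, duplicate B of CT28, held expression of genes otherwise seen in w1118 and is called the mixed library. The receptor subunit nAChRalpha7 measured 15.3 CPM in it, against at most 1.08 CPM among 17 remaining per0 libraries. In w1118 this gene measured at least 13.6 CPM, with a median of 36.1 CPM. Hs3st-A measured 19.0 CPM in the mixed library and at most 0.505 CPM in the remaining per0 libraries. In w1118 its lowest value was 1.01 CPM and its median 29.0 CPM. These levels lie within the w1118 range, so they cannot tell a mixture from w1118 RNA alone. Results in per0 are therefore given with and without this mixed library. The period transcript was too scarce in both genotypes, at or under 2.06 CPM, to check the genotype labels.

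Per kilobase of exon, Thor was the most abundant of the 9, with a median of 201 CPM per kb over 36 libraries and a range of 26.0 to 1395. REPTOR-BP followed with a median of 32.9 CPM per kb (10.9 to 85.2) and S6k with 21.6 (13.9 to 30.7). The medians of chico (6.28 CPM per kb, 4.06 to 9.85), foxo (6.15, 3.49 to 14.2) and mTor (5.24, 4.11 to 7.06) lay so close that their ranges overlapped almost entirely. REPTOR had a median of 3.50 CPM per kb (2.37 to 5.95) and InR 0.749 (0.319 to 1.47). Sesn was last, with 0 to 3 counts per library and any count in 8 of 36 libraries, at most 0.149 CPM. Its level is uncertain, since in the reference annotation the gene CG46429 lies wholly within Sesn exons on the same strand covers 65.1% of Sesn exon bases, and CG46429 itself is at 0 in all libraries. Sesn was left out of the tests. Exon lengths are from the Ensembl annotation of the reference supplied, which may differ from the one used for counting.

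The TOR and FOXO outputs are described first. In w1118, Thor and REPTOR-BP were low in the subjective morning, rose by late day and stayed high through the subjective night, and REPTOR was higher at night. Morning here means CT0, CT4, CT24 and CT28, late day CT8 and CT32, and night CT12, CT16 and CT20. A gene is called where the adjusted p of edgeR's quasi-likelihood F test, with Benjamini-Hochberg adjustment over all genes tested, is under 0.05. Differences are in log2 with their standard error.

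Thor measured 37.2 and 33.2 CPM in the duplicates at CT0 in w1118, 19.7 and 26.3 (CT4), 147 and 145 (CT8), 331 and 547 (CT12), and 823 and 1053 (CT16). It then measured 342 and 503 CPM (CT20), 43.4 and 62.4 (CT24), 24.7 and 33 (CT28), and 497 and 867 (CT32). The 8 morning libraries, at 19.7 to 62.4 CPM, lay below all 4 late day libraries (145 to 867 CPM) and all 6 night libraries (331 to 1053 CPM). Duplicates differed by a median of 1.34-fold and at most 1.75-fold. Thor differed between times by up to 5.35 log2 (adjusted p = 0.000143), and its fitted 24 h rhythm spanned 4.95 ± 0.52 log2 from trough to peak with a peak at CT14.5 (n = 18 libraries, adjusted p = 0.00105). Night exceeded the 2 days by 2.92 ± 0.15 log2 (adjusted p = 5.38e-06), and late day exceeded morning by 3.21 ± 0.18 log2 (adjusted p = 2.18e-05). The 24 h call was lost when both CT16 libraries were left out, at 3.85 log2 (adjusted p = 0.0881), while the night and late day calls were kept under every alternative run.

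In per0 the duplicates of Thor diverged more. The gene measured 203 and 191 CPM (CT0), 174 and 115 (CT4), 133 and 146 (CT8), 78.9 and 191 (CT12), and 153 and 101 (CT16). It then measured 885 and 281 CPM (CT20), 34.3 and 150 (CT24), 20 and 590 (CT28), where the higher value is the mixed library, and 305 and 798 (CT32). At CT0 and CT4 the per0 libraries (115 to 203 CPM) all lay above the w1118 ones (19.7 to 37.2 CPM), and at CT12 and CT16 (78.9 to 191 CPM) all lay below them (331 to 1053 CPM). The morning order did not recur a day later. At CT24 the w1118 libraries (43.4 and 62.4 CPM) lay between the per0 ones. At CT28 both w1118 libraries (24.7 and 33.0 CPM) exceeded the unmixed per0 one. Fat body markers at CT0 and CT4 summed to 30871 to 84863 CPM in per0 and 93848 to 175353 CPM in w1118, and their part was not tested. Duplicates differed by more than 2-fold at 5 of 9 times, with a median of 2.43-fold. Night and day libraries overlapped throughout, at 78.9 to 885 and 20 to 798 CPM, and the night difference was 0.11 ± 0.54 log2 (adjusted p = 1.0). Without the mixed library the night difference was 0.70 ± 0.37 log2 (adjusted p = 0.570). The late day difference was 0.67 ± 0.65 log2 with the mixed library (adjusted p = 0.615) and 1.68 ± 0.47 log2 without it (adjusted p = 0.0443), so this call depended on whether that library was kept. The difference between any times did not pass either way (adjusted p = 0.291 with it and 0.0572 without it).

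**Figure D1:**
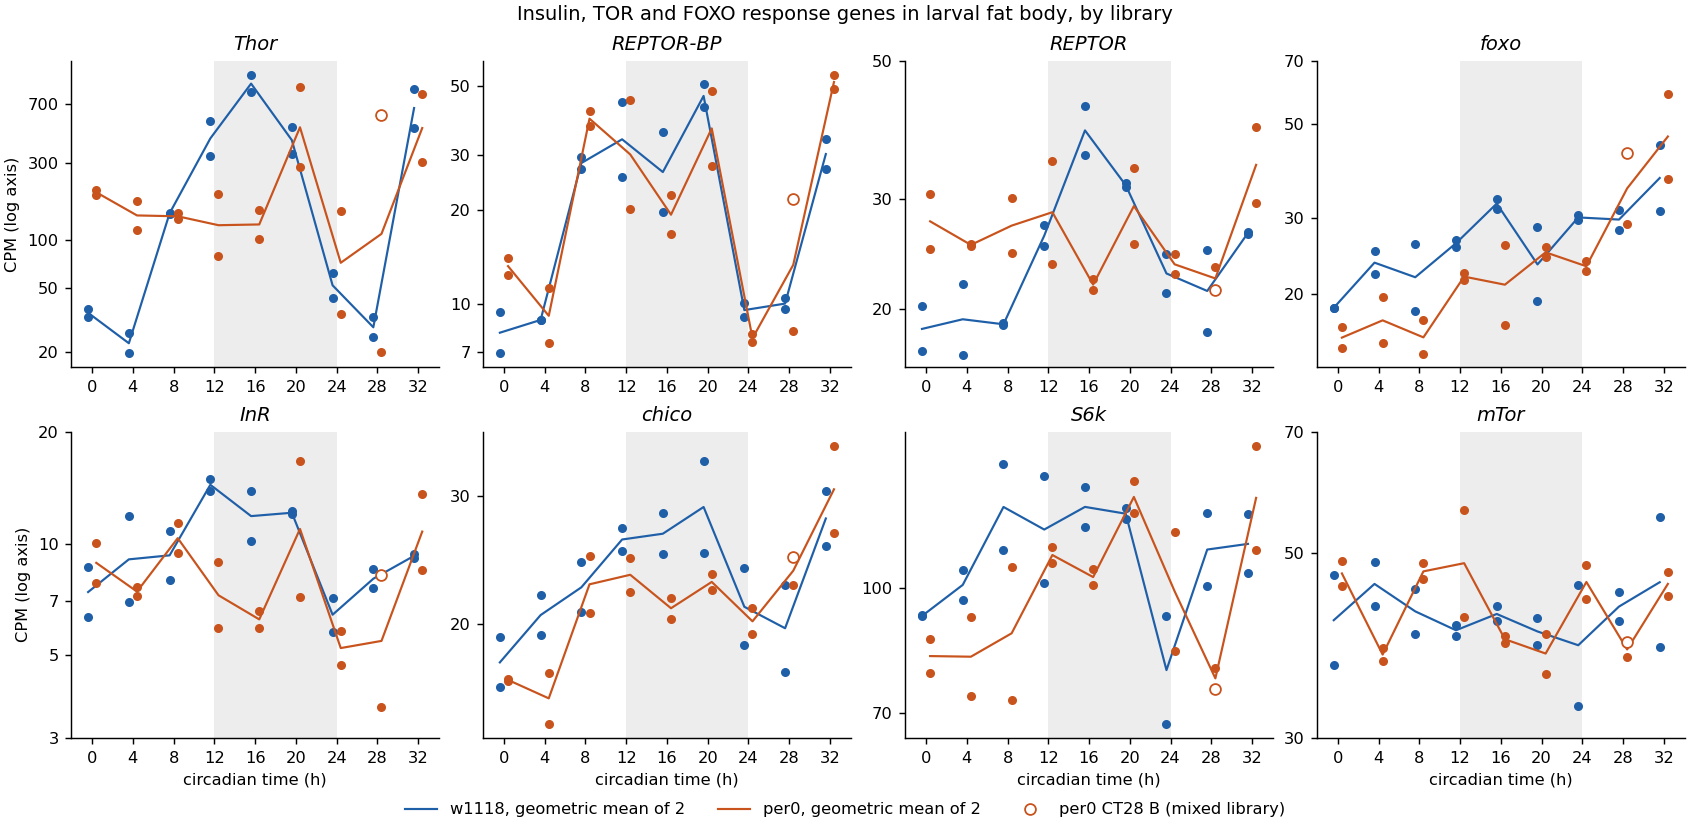
Levels of the 8 tested genes in CPM (log axis) against circadian time in hours, for w1118 (blue) and per0 (orange). Points are libraries (the genotypes are set slightly apart sideways), lines join geometric means of the 2 libraries, the open circle is the mixed per0 library, and shading marks the subjective night, CT12 to CT24. Thor in w1118 moved between 19.7 and 1053 CPM, whereas mTor stayed between 32.8 and 56.4 CPM in all 36 libraries.

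REPTOR-BP, a bZIP factor that binds REPTOR, followed a like course in w1118 on a smaller scale. It measured 9.39 and 6.92 CPM (CT0), 8.85 and 8.87 (CT4), 29.5 and 27.0 (CT8), 25.5 and 44.2 (CT12), and 19.6 and 35.5 (CT16). It then measured 42.5 and 50.4 CPM (CT20), 9.02 and 10.1 (CT24), 9.59 and 10.4 (CT28), and 27.0 and 33.7 (CT32). Every morning library (6.92 to 10.4 CPM) lay below every late day (27.0 to 33.7 CPM) and night library (19.6 to 50.4 CPM). The fitted 24 h rhythm spanned 2.0 ± 0.22 log2 with a peak at CT14.5 (adjusted p = 0.00118), a call lost when the 24 h pair was fitted without the 12 h pair (2.38 log2, adjusted p = 0.0524). Night exceeded day by 1.33 ± 0.14 log2 (adjusted p = 0.000544) and late day exceeded morning by 1.65 ± 0.17 log2 (adjusted p = 0.000849).

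In per0, REPTOR-BP also rose from morning to late day. It measured 12.4 and 14.0 CPM (CT0), 7.45 and 11.2 (CT4), 37.1 and 41.3 (CT8), 20.1 and 44.9 (CT12), and 16.7 and 22.2 (CT16). It then measured 48.0 and 27.6 CPM (CT20), 7.52 and 7.97 (CT24), 8.19 and, in the mixed library, 21.6 (CT28), and 48.7 and 54.0 (CT32). The 4 late day libraries (37.1 to 54.0 CPM) lay above all 8 morning ones (7.45 to 21.6 CPM, or to 14.0 without the mixed library), a difference of 1.99 ± 0.25 log2 (adjusted p = 0.00409) that was 2.23 ± 0.24 log2 without it (adjusted p = 0.00179). This call was lost without CT32 (1.65 ± 0.32 log2, adjusted p = 0.119). The night difference was 0.68 ± 0.21 log2 (adjusted p = 0.207), or 0.78 ± 0.19 log2 without the mixed library (adjusted p = 0.164). In both genotypes the mean of REPTOR-BP was lower at CT16 than at CT12 and CT20, at 27.6 ± 11 CPM in w1118 and 19.5 ± 3.9 CPM in per0 (SD, n = 2), against 32.5 to 46.5 CPM at the neighbouring times, but the CT16 and CT12 duplicates overlapped in both. The 12 h rhythm did not pass in either genotype (adjusted p = 0.215 and 0.175), but did with DESeq2 in both.

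REPTOR, the transcription factor that TOR complex 1 holds in the cytoplasm, moved less. In w1118 it measured 20.2 and 17.1 CPM (CT0), 22.0 and 16.9 (CT4), 19.0 and 18.8 (CT8), 25.2 and 27.3 (CT12), and 42.4 and 35.3 (CT16). It then measured 31.9 and 31.3 CPM (CT20), 24.5 and 21.2 (CT24), 24.9 and 18.4 (CT28), and 26.4 and 26.6 (CT32). The 6 night libraries (25.2 to 42.4 CPM) overlapped the 12 day libraries (16.9 to 26.6 CPM) only through CT32. Night exceeded day by 0.51 ± 0.11 log2 (adjusted p = 0.0209), a call lost with the midgut marker level as a covariate (0.49 ± 0.12 log2, adjusted p = 0.0522). In per0 night libraries (21.5 to 34.6 CPM) and day libraries (21.4 to 39.3 CPM) overlapped, with a difference of -0.03 ± 0.11 log2 (adjusted p = 1.0).

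Of the 8 tested genes, 3 were higher at night in w1118 (Thor, REPTOR-BP and REPTOR), where 2.54% of all genes were. Differences between any times were called for the same 3, against 12.2% of all genes, and REPTOR only just passed (1.07 log2, adjusted p = 0.0499), a call lost without either CT0 library, CT4 B, CT16 A or CT20 A (adjusted p = 0.0505 to 0.0906). It was also lost with the midgut marker covariate (adjusted p = 0.195), without CT16 (0.76 log2, adjusted p = 0.0968), without CT0 (adjusted p = 0.0569) and without the filter on low counts (adjusted p = 0.071). A 24 h rhythm was called for 2, Thor and REPTOR-BP, against 0.618% of all genes, and both were also higher in late day than in morning, against 3%. The night difference had a median of 0.39 log2 over the 8 genes and -0.12 log2 over all genes. In the night difference in w1118 no tested marker of another organ was called by edgeR, while the fat body genes Desat1 (1.17 ± 0.13 log2) and Jabba (1.05 ± 0.12) were higher and Fbp1 (-6.03 ± 1.21) lower. The gonad and midgut marker levels entered as covariates left the night and late day calls of Thor and REPTOR-BP in place. In the late day difference all 4 tested cuticle genes were lower in w1118, and the list of 5 summed to 20.7 to 1664 CPM in the morning and 7.33 to 42.5 CPM in late day, and the fat body genes Desat1, Fbp2 and Lsp2 were higher. Their part in the result was not tested.

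In per0 none of the 8 genes was called for night against day by edgeR, against 0.156% of all genes. Over all genes 1141 had an unadjusted p under 0.05 and DESeq2 called 527, and among the 8 these counts were 2 and 0. None was called for a 24 h rhythm, as for 0% of all genes (1148 genes had an unadjusted p under 0.05, and 103 were called by DESeq2), and 1 of the 8 had an unadjusted p under 0.05. For 12 h the count was 0 of 8 in both genotypes, against 0% of all genes, with 2 genes in w1118 and 4 in per0 at an unadjusted p under 0.05 and 2 each by DESeq2. Late day against morning gave 2 higher genes, REPTOR-BP and chico, against 3.79% of all genes. The fat body gene Jabba and the neuronal gene Syt1 were higher there too, and their part in the result was not tested.

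**Figure D2:**
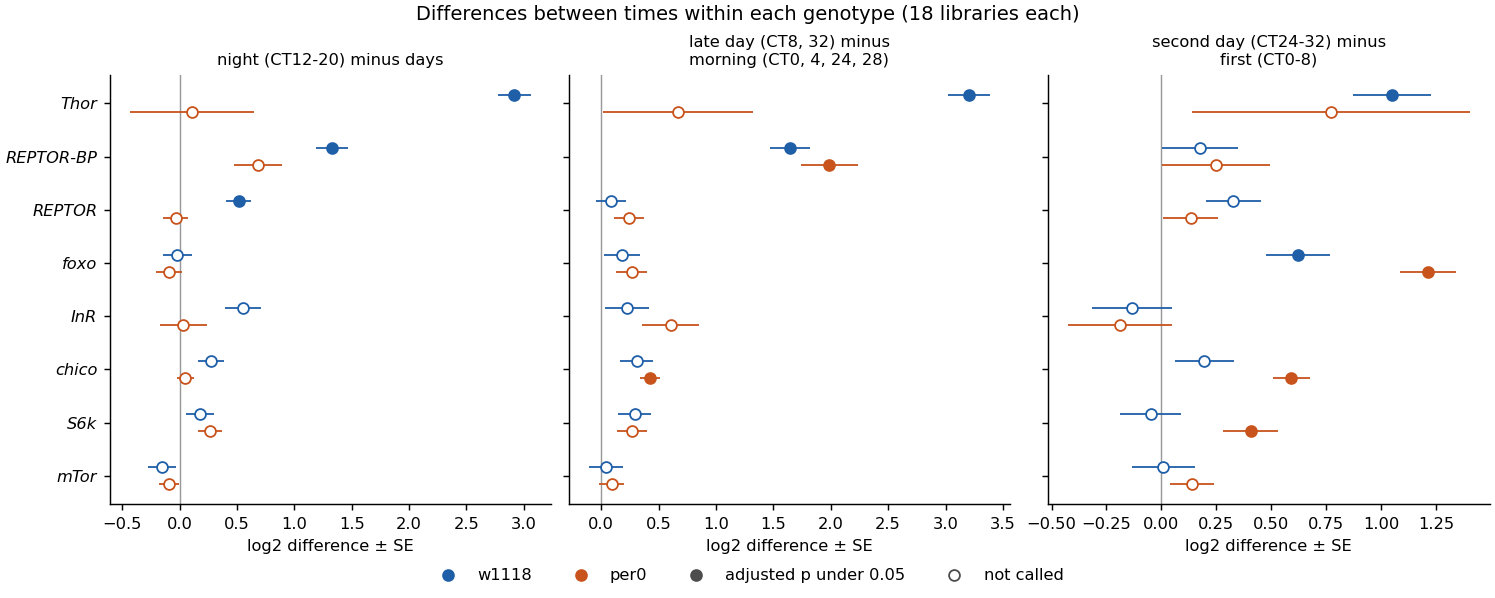
Differences in log2 (points) with their SE (bars) for each gene in w1118 (blue) and per0 (orange), for night minus day, late day minus morning, and second day minus first. Filled points had an adjusted p under 0.05. Thor in w1118 stood at 2.92 and 3.21 in the first pair of panels, and foxo stood to the right of 0 in both genotypes in the last.

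The genotypes were compared directly by interaction terms. The night difference of Thor was smaller in per0, by a fitted change of -2.87 ± 0.63 log2, and this missed the threshold (adjusted p = 0.0664). It was -2.2 ± 0.41 log2 without the mixed library (adjusted p = 0.0571), and DESeq2 gave -2.90 ± 0.58 log2 (adjusted p = 0.000124). For REPTOR the corresponding value was -0.59 ± 0.14 log2 (adjusted p = 0.0864), and -0.57 ± 0.15 log2 without the mixed library (adjusted p = 0.154). The late day difference of REPTOR-BP was larger in per0 by 0.36 ± 0.35 log2, which did not pass (adjusted p = 0.919). That of Thor was smaller in per0, by a fitted change of -1.51 ± 0.51 log2 without the mixed library. With that library kept, the interaction of Thor with late day was not called. By edgeR, none of the 8 genes was called for an interaction with any time (0.374% of all genes, 2 of the 8 at an unadjusted p under 0.05, 5 by DESeq2) or with night (0.241%, 4 and 2). The same count of 0 was found for the interaction with late day (0.00832%, 1 and 1) and with the second day (1.08%, 1 and 0). Interactions with the 24 h rhythm (2 and 1) and the 12 h rhythm (2 and 0) were called for 0% of all genes. Over all genes, an unadjusted p under 0.05 was found for 3432 with any time, 1313 with night, 893 with late day and 2228 with the second day. DESeq2 called 3598, 372, 151 and 999 of all genes in that order. For the 24 h and 12 h rhythms 734 and 1730 had an unadjusted p under 0.05, and DESeq2 called 11 and 4. Without the mixed library, the interaction of Thor with any time passed (adjusted p = 0.0275).

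Averaged over the 9 times, none of the 8 genes differed between the genotypes by edgeR, although 44.1% of all genes did. Of the 8, 1 had an unadjusted p under 0.05, and DESeq2 called 4. Of the 12020 genes tested, 6037 had an unadjusted p under 0.05, and DESeq2 called 7238. The mean difference, per0 minus w1118, was 0.54 ± 0.29 log2 for Thor, 0.15 ± 0.13 for REPTOR-BP, 0.13 ± 0.07 for REPTOR and 0.02 ± 0.06 for mTor. It was -0.19 ± 0.08 log2 for foxo, -0.26 ± 0.13 for InR, -0.11 ± 0.06 for chico and -0.15 ± 0.07 for S6k. Adjusted p-values ran from 0.0717 (foxo) to 0.945 (mTor). Without the mixed library the difference was 0.12 ± 0.20 log2 for Thor, and that of InR passed (-0.33 ± 0.12 log2, adjusted p = 0.0277).

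Turning to the insulin receptor arm, InR encodes the receptor and is also a reported FOXO target. In w1118 the 6 night libraries had 10.2 to 14.9 CPM and the 12 day libraries 5.79 to 11.8 CPM, which overlapped at CT4 and CT8. The night difference of 0.55 ± 0.15 log2 missed the threshold (adjusted p = 0.0704), and it passed with DESeq2 (0.60 ± 0.18 log2, adjusted p = 0.00689). In per0 InR ranged from 3.63 to 16.7 CPM, and at CT20 its duplicates measured 16.7 and 7.19 CPM. The night difference there was 0.03 ± 0.21 log2 (adjusted p = 1.0). The difference between genotypes in the night difference, per0 minus w1118, was -0.57 ± 0.27 log2 (adjusted p = 0.443).

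The transcription factor foxo was higher on the second day of sampling than on the first, in both genotypes. The 3 times of the second day (CT24 to CT32) were set against those of the first (CT0 to CT8) at matched phase. In w1118 foxo measured 18.5 and 18.6 CPM (CT0), 25.2 and 22.2 (CT4) and 26.2 and 18.2 (CT8), then 25.7 and 26.8 (CT12), 33.4 and 31.6 (CT16) and 19.2 and 28.6 (CT20). On the second day it measured 30.6 and 29.7 CPM (CT24), 28.3 and 31.5 (CT28) and 44.7 and 31.1 (CT32). In per0 it measured 14.9 and 16.7 CPM (CT0), 15.3 and 19.6 (CT4) and 14.4 and 17.3 (CT8), then 21.5 and 22.4 (CT12), 16.9 and 26.1 (CT16) and 24.3 and 25.7 (CT20). On the second day it measured 22.5 and 23.8 CPM (CT24), 29.2 and 42.6 (CT28), the latter in the mixed library, and 37.1 and 58.7 (CT32). First and second day did not overlap, at 18.2 to 26.2 and 28.3 to 44.7 CPM in w1118 and at 14.4 to 19.6 and 22.5 to 58.7 CPM in per0. The second day was higher by 0.62 ± 0.15 log2 in w1118 (adjusted p = 0.0141) and by 1.21 ± 0.13 log2 in per0 (adjusted p = 0.000331), or 1.14 ± 0.15 log2 in per0 without the mixed library (adjusted p = 0.00153). The difference between genotypes in this, per0 minus w1118, was 0.46 ± 0.21 log2 (adjusted p = 0.239). The w1118 call was lost with the midgut marker covariate (0.59 ± 0.17 log2, adjusted p = 0.0548) and without CT0 (0.57 ± 0.18 log2, adjusted p = 0.106) or CT24 (0.59 ± 0.18 log2, adjusted p = 0.0885).

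The adaptor chico, the insulin receptor substrate, also rose on the second day in per0. It measured 16.8 and 16.7 CPM (CT0) and 19.3 and 21 (CT24), 17.1 and 14.5 (CT4) and 22.6 and 24.8 (the mixed library) at CT28, and 20.7 and 24.8 (CT8) and 26.7 and 35.2 (CT32). At each phase both second day libraries exceeded both first day ones. The difference was 0.59 ± 0.09 log2 in per0 (adjusted p = 0.00128) and 0.59 ± 0.10 log2 without the mixed library (adjusted p = 0.00542), and the call was lost without CT8 (0.43 ± 0.11 log2, adjusted p = 0.0521). In w1118 the first and second day ranges overlapped, at 16.3 to 24.3 and 17.2 to 30.5 CPM, with a difference of 0.20 ± 0.14 log2 (adjusted p = 0.294). In per0 chico was also higher in late day than in morning, at 20.7 to 35.2 against 14.5 to 24.8 CPM (0.43 ± 0.09 log2, adjusted p = 0.0187), a difference that fell to 0.07 ± 0.11 log2 without CT32 (adjusted p = 0.773). The late day call of chico was also lost without duplicate B of CT8 (adjusted p = 0.0627) or of CT32 (adjusted p = 0.114). An annotated antisense RNA overlaps 10.6% of chico exon bases and lies wholly within them. It is at 0 in all libraries. Since the libraries keep no strand, its reads could not be told from those of chico, so the 0 does not show its absence.

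The 2 kinases had the narrowest ranges relative to their level among the 8 tested genes. S6k, the ribosomal protein S6 kinase, ranged from 67.8 to 150.0 CPM, and mTor, the kinase itself, from 32.8 to 56.4 CPM over 36 libraries. S6k was higher on the second day in per0 by 0.41 ± 0.12 log2 (adjusted p = 0.0423), but this call was lost when any 1 of the 18 per0 libraries was left out, the mixed one included (0.43 ± 0.15 log2, adjusted p = 0.0697). For mTor no comparison was called, and the difference between its highest and lowest time was 0.35 log2 in w1118 (adjusted p = 0.892) and 0.39 log2 in per0 (adjusted p = 0.464).

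On the second day 2 of 8 genes were higher in w1118 (Thor and foxo), against 8.18% of all genes, and 3 of 8 in per0 (foxo, chico and S6k), against 9.6%. Differences between any times were called in per0 for 3 genes, REPTOR-BP (2.68 log2, adjusted p = 0.0138), foxo (1.79 log2, adjusted p = 0.00584) and chico (1.05 log2, adjusted p = 0.0144), against 9.71% of all genes. The call of chico was lost without CT0 A, either CT4 library or CT32 B (adjusted p = 0.0516 to 0.109). The second day rise of Thor in w1118 was 1.05 ± 0.18 log2 (adjusted p = 0.00216), and the call was lost without CT32 (0.46 ± 0.21 log2, adjusted p = 0.143), without CT8 (0.46 ± 0.25 log2, adjusted p = 0.191) and in 1 fit over all 36 libraries (1.05 ± 0.51 log2, adjusted p = 0.121). In per0 the second day difference of Thor was 0.77 ± 0.63 log2 (adjusted p = 0.444) with the mixed library and -0.48 ± 0.47 log2 (adjusted p = 0.494) without it. For Thor in w1118, the morning libraries of the first day, at 19.7 to 37.2 CPM, overlapped those of the second, at 24.7 to 62.4 CPM. Fat body markers moved with the second day. The 10 genes, larval serum proteins among them, summed to 93848 to 384405 CPM on the first day and 371608 to 513551 CPM on the second in w1118, and to 30871 to 84863 and 206073 to 487564 CPM in per0. Lsp2 was higher by 4.38 ± 0.36 log2 in w1118 and 12.63 ± 2.09 log2 in per0, muscle markers were lower for 1 of 8 genes in w1118 and 3 of 7 in per0, and the neuronal gene Syt1 was higher in both. Of the 10 fat body genes, Desat1 (-0.90 ± 0.16 log2), FASN1 (-1.05 ± 0.20) and Jabba (-0.64 ± 0.15) were lower on the second day in w1118. The cuticle genes Lcp1 and Lcp2 were higher in w1118. Salivary gland markers summed to at most 3.80 CPM on the first day and 1853 CPM on the second in w1118, and to at most 0.271 and 12984 CPM in per0. The value of 12984 CPM is the mixed library, and the remaining second day per0 libraries reached at most 10.4 CPM. The part of all these markers in the foxo, chico and Thor results was not tested.

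The other genes of the pathway, 84 with the members on 8 lists, place these changes. Among TOR complexes and their regulators, 3 of 24 tested genes were higher and none lower in late day in w1118, and 4 were higher and 1 lower in per0, also without the mixed library. Over all genes 3% were higher in w1118, and in per0, with the mixed library, 3.79% were higher and 5.18% lower. Higher in both genotypes were Rheb, the small GTPase that activates TOR complex 1 (0.68 ± 0.13 log2 in w1118 and 0.83 ± 0.13 in per0), Wdr59 of the GATOR2 complex (0.63 ± 0.13 and 0.75 ± 0.14) and AMPKalpha, the catalytic subunit of the energy sensor AMPK (0.55 ± 0.12 and 0.55 ± 0.12). In w1118 the call of Wdr59 held in 9 of 18 fits that left out 1 library, that of AMPKalpha in 13 and that of Rheb in 14. Rheb was also higher at night in w1118 (0.75 ± 0.10 log2, adjusted p = 0.00255), and so was scyl, a hypoxia-induced inhibitor of TOR (0.57 ± 0.13 log2). In per0 the night difference of Rheb was 0.52 ± 0.11 log2 (adjusted p = 0.0808), and the test of the difference between genotypes gave an adjusted p of 0.650.

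Between receptor and Akt, 4 of 15 tested genes were higher on the second day in w1118 and 5 in per0 (4 without the mixed library), and none was lower. Over all genes 8.18% were higher in w1118 and, with the mixed library, 9.6% in per0. Those named by rule beyond foxo and chico were Pi3K21B, the adaptor subunit of PI3-kinase (0.72 ± 0.20 log2 in per0, adjusted p = 0.0253, called in 6 of 18 fits that left out 1 library), Pdk1, the kinase that activates Akt (0.74 ± 0.14 log2 in w1118), step, a steppke guanine nucleotide exchange factor that promotes insulin signalling (0.47 ± 0.10 in w1118 and 0.54 ± 0.11 in per0), and dock. The adaptor dock lost its per0 call without the mixed library (0.30 ± 0.12 log2, adjusted p = 0.104). The pseudokinase trbl, an inhibitor of Akt, was higher at night in w1118 (0.65 ± 0.08 log2, adjusted p = 0.00168) and Pi3K21B lower (-0.85 ± 0.16 log2, adjusted p = 0.016), where 2.21% of all genes were lower. Of the insulin-like peptides and their binding proteins, 7 of 11 were tested in w1118, and Ilp6, the peptide that the fat body itself makes, was the only one higher on the second day (1.07 ± 0.21 log2, adjusted p = 0.00523). Of 6 transporters 1 was called at night in w1118, and of 4 sugar sensing genes 1 was higher and 1 lower, where 2.54% of all genes were higher. The higher ones were path, an amino acid transporter, by 0.98 ± 0.11 log2 (adjusted p = 0.000628) and sug, a Gli-like transcription factor of sugar sensing, by 1.48 ± 0.20 log2 (adjusted p = 0.00204), and the lower one was Mondo (-0.74 ± 0.17 log2, adjusted p = 0.0331).

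Of the reported FOXO targets, 9 of 11 were tested, and 4 were higher in late day in w1118, Thor, bmm, Lip4 and daw, where 3% of all genes were. The lipase bmm, the homologue of mammalian adipose triglyceride lipase, measured 10.4 and 9.20 CPM (CT0), 14.4 and 21.3 (CT4), 61.4 and 36.6 (CT8), 52.8 and 44.4 (CT12), and 9.0 and 9.76 (CT16). It then measured 50.4 and 64.3 CPM (CT20), 55.7 and 66.5 (CT24), 25.7 and 37.5 (CT28), and 113 and 115 (CT32). At CT16, where Thor was highest, bmm was thus as low as at CT0, and the lipase Lip4 was low there as well, at 28.2 and 29.4 CPM against 64.7 to 83.3 CPM (CT12) and CT20. Both w1118 pools held little gonad marker RNA at CT16 (1.58 and 1.43 CPM summed) and at CT0 (1.61 and 2.16 CPM). Midgut markers summed to only 1.47 and 0.806 CPM at CT16. The part of pool make-up in the low bmm and Lip4 values was not tested. Late day exceeded morning by 1.60 ± 0.15 log2 for bmm (adjusted p = 0.000596), 1.16 ± 0.13 for Lip4 (adjusted p = 0.00104) and 0.59 ± 0.11 for daw, an activin-like ligand (adjusted p = 0.0155). In per0 the late day difference was called for Lip4 (2.24 ± 0.56 log2) and daw (1.0 ± 0.20 log2), and without the mixed library 4 of the 9 genes were called, all higher. With that library 3.79% of all genes were higher. In either direction 980 of all genes were called with it and 1286 without it.

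On the second day 5 of the 9 FOXO targets were higher in w1118 and 1 lower, where 8.18% of all genes were higher and 10% lower. The higher ones were bmm (1.57 ± 0.15 log2), Lip4 (1.52 ± 0.13), Ilp6 (1.07 ± 0.21), Thor and daw (adjusted p = 0.0139), and the lower one was srl, the homologue of the mitochondrial coactivator PGC-1 (-0.84 ± 0.21). The bmm and Lip4 calls held in all 18 fits that left out 1 library. In per0 only Lip4 was called (1.85 ± 0.57 log2, adjusted p = 0.0417), and not without the mixed library (1.05 ± 0.46 log2, adjusted p = 0.136), where none of the 9 was called by edgeR. For bmm the test of the difference between genotypes gave -0.81 ± 0.62 log2 (adjusted p = 0.495). The gluconeogenic gene Pepck1 was at 0 in all 36 libraries.

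**Figure D3:**
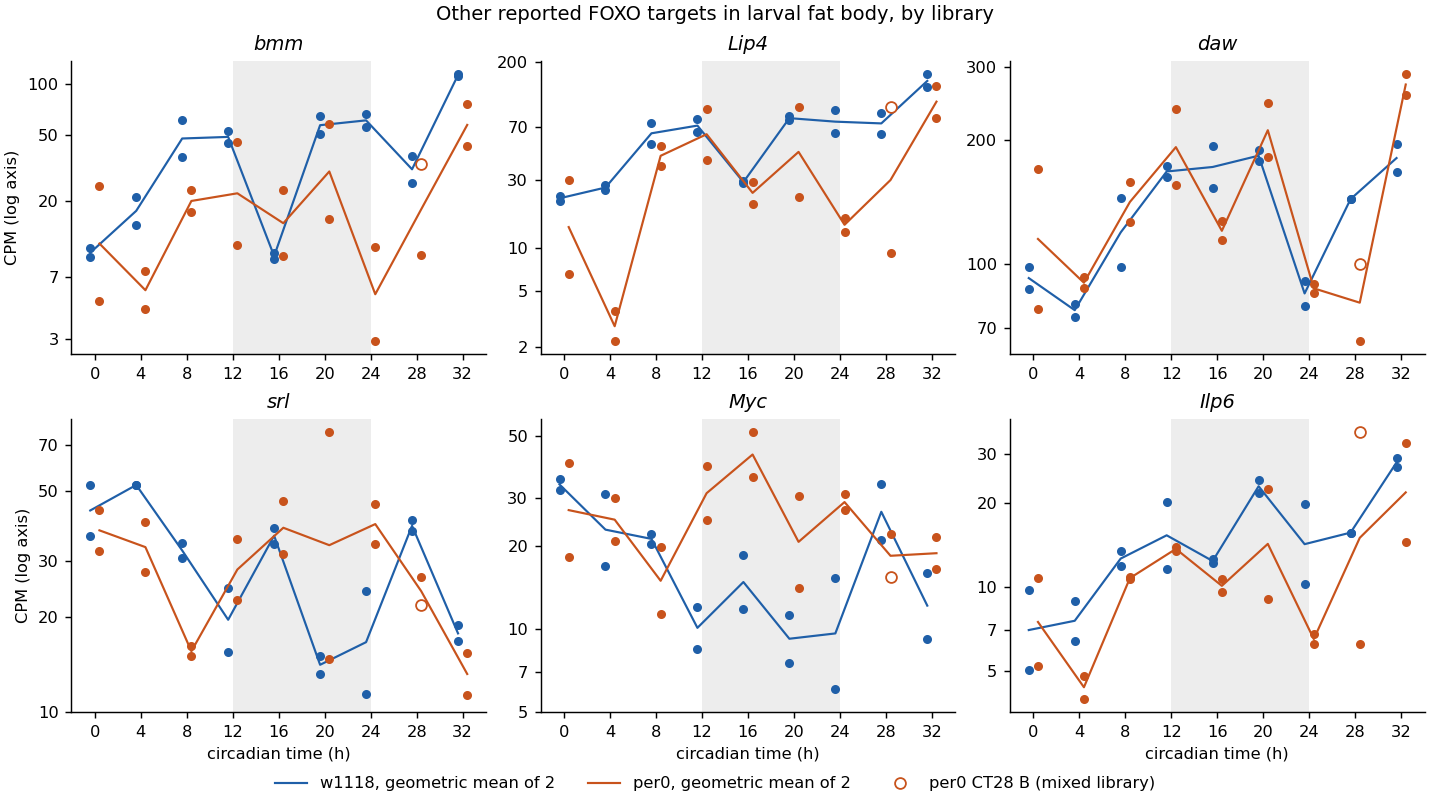
Levels of 6 reported FOXO targets in CPM (log axis) against circadian time in hours in w1118 (blue) and per0 (orange), with points for libraries, lines for geometric means of 2, an open circle for the mixed library and shading for CT12 to CT24. In w1118 bmm and Lip4 were highest at CT32, where bmm reached 115 CPM. They dipped at CT16, where both pools also held little gonad or midgut marker RNA.

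Several pathway genes other than the 8 differed between the genotypes, as did 44.1% of all genes. Atg1, the kinase that starts autophagy, was higher in per0 by 1.23 ± 0.13 log2 (adjusted p = 5.18e-07), melt, an adaptor that modulates insulin signalling, by 1.25 ± 0.20 (adjusted p = 4.14e-05), and trbl by 0.64 ± 0.12 (adjusted p = 0.000187). The lipase gene bmm was lower in per0, at -0.84 ± 0.25 log2 (adjusted p = 0.0110). These 4 calls also held without the mixed library. By list, 6 of 15 receptor-to-Akt genes, 11 of 24 TOR complex genes, 6 of 12 TOR outputs and 3 of 9 FOXO targets were called, set against the 44.1% of all genes. These totals include the members, none of them called, so the share among the other genes is higher. The sugar sensing genes sug (0.85 ± 0.14 log2), cbt (0.50 ± 0.13) and bigmax (0.35 ± 0.10) were also higher in per0, while Mondo was not called. Of the stress response genes, Nmdmc and crc were higher and Gcn2 lower. Without the mixed library 5 of 9 FOXO targets were called, where 5649 of all genes were called, against 5306 with it.

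Thor and REPTOR-BP were compared with the 5269 genes with a mean of at least 10 CPM by Pearson correlation of log2(CPM + 0.5) over the 18 genotype and time means, as a description that shares libraries, scaling and the mixed library. The genes most like Thor were aqz (r = 0.87), the polyubiquitin gene Ubi-p5E (0.86), the phosphoserine phosphatase aay (0.84), CG8389 (0.82) and CG6428 (0.82). REPTOR ranked 8 in likeness to Thor (r = 0.81) and REPTOR-BP 20 (r = 0.78), whereas foxo ranked 957 (r = 0.32) and mTor 2838 (r = -0.06). The genes most like REPTOR-BP were more alike than those of Thor. They were shrb (r = 0.96) and Chmp1 (0.96), subunits of the ESCRT-III membrane remodelling complex, Sou (0.96), the autophagy protein Atg9 (0.95) and the endosomal syntaxin Syx8 (0.95). Within w1118 alone the r of Thor with REPTOR-BP was 0.90, with chico 0.92 and with foxo 0.45, and within per0 0.68, 0.43 and 0.40.

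**Figure D4:**
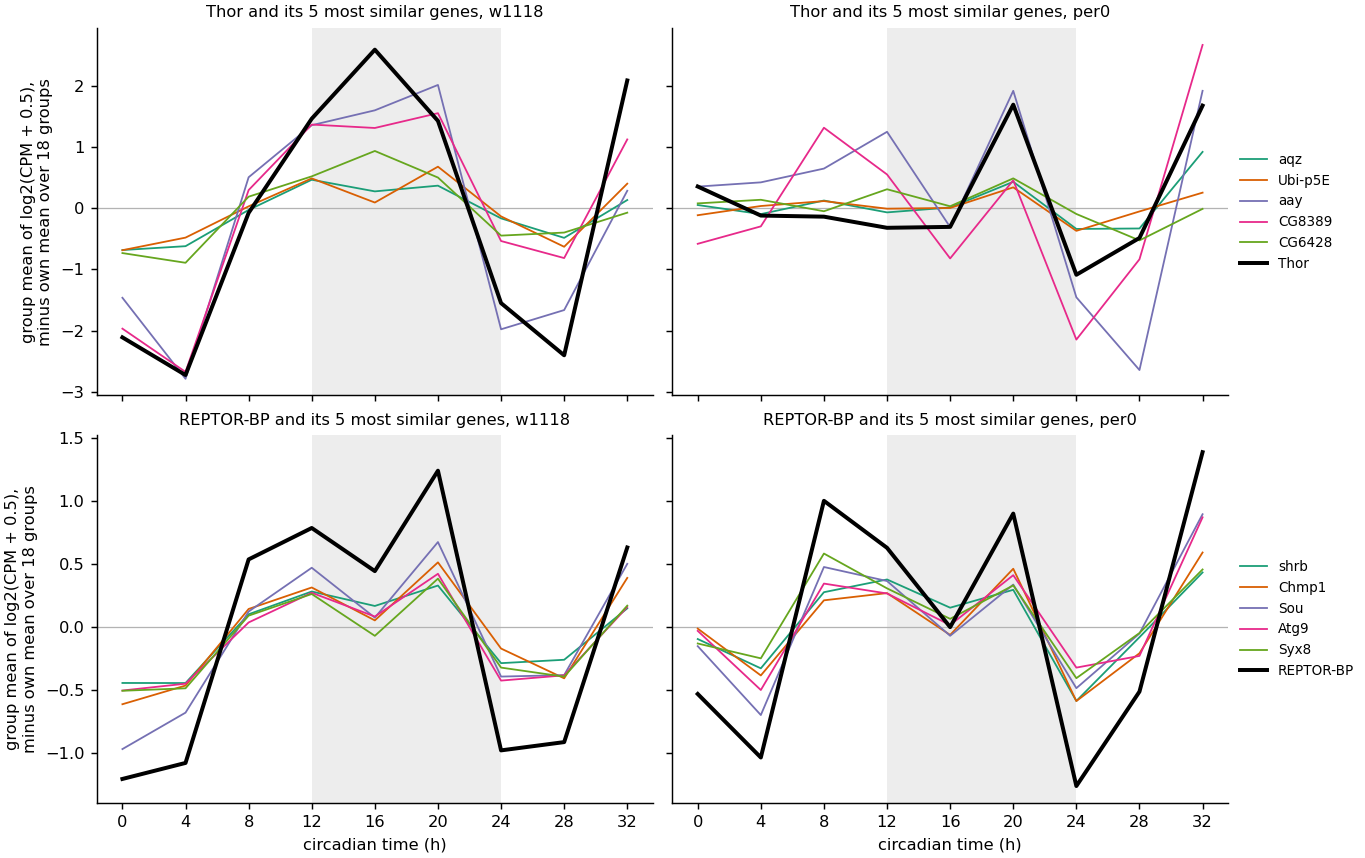
Group means of log2(CPM + 0.5), each minus the gene's own mean over 18 groups, against circadian time in hours, for Thor with its 5 most similar genes (upper panels) and REPTOR-BP with its own (lower panels), in w1118 (left) and per0 (right). Lines are genes, with the reference gene in black, and shading marks CT12 to CT24. The genes near REPTOR-BP (r of 0.95 to 0.96) rose and fell with it in both genotypes.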

How the data were processed

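The authors deposited raw counts per gene and library, 1 table per genotype. STAR 2.7.9a, featureCounts, edgeR and DESeq2 1.30.1 are named, per the submitters' processing notes, without roles; the genome build is not given in the sources used here. Libraries were made with SMART-Seq v4, per the labels' protocols, which keeps no strand and no molecular identifier. The sample titles call the duplicates biological replicates (biorep), but no label says that they are separate cultures. The p-values therefore measure the spread between these samples, part of which may be technical. A w1118 CT0 sample whose genotype tag names per0 was kept as w1118, after its title.

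Counts were tested with edgeR 4.0.16 in R 4.3.3 (TMM, filterByExpr, quasi-likelihood F test, Benjamini-Hochberg) on 11650 genes in w1118, 10926 in per0 and 12020 in both. Times were compared within each genotype, and interactions and genotype means over all 36 libraries. Rhythms were fitted as 24 h and 12 h pairs together. A rule picked each member in every comparison. Of each pathway list it picked up to 4 called genes with the largest change (or the smallest p, for rhythms and any time). Only part of the genes so picked is described, and daw on the second day is named beyond the rule. Left out were, among others, chrb, lower in late day in per0 (-0.93 ± 0.26 log2), and mnd, lower on the second day in w1118 (-1.80 ± 0.30). Sec13, alc and RpS6, higher in per0 than in w1118, were left out too. The genes most like Thor and REPTOR-BP were the 5 of highest r. Members, lists, tests and naming rules were chosen with earlier results of these data known. The scripts were tested on simulated data. DESeq2 1.42.0 was an alternative.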

Additional observations from a re-analysis of the deposited data

How the results depend on the processing

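No paired analysis was possible because the count columns are lettered A and B, and nothing links those letters to replicate numbers. Of 6155 alternative values of the 8 genes over 53 settings, 5971 kept their side of the threshold, 61 lost a call, 123 gained one and none reversed a called direction. Comparisons of means gave 3257 of these values, called ones included. Of them 240 changed sign, all uncalled in both the main and the alternative fit. The other size factors moved no difference by more than 0.0901 log2. Of the 8 genes, the number called under an alternative is given here where it differed by more than 1.5 times. In w1118, DESeq2 called 5 for any time, 5 for 24 h, 2 for 12 h and 5 for night, and genes with a mean of at least 10 CPM gave 5 for any time, 1 for 12 h, 5 for night and 4 for the second day. A rhythm pair alone gave 1 for 24 h, and leaving out CT16 gave 1. For 12 h, leaving out CT0 or CT12 gave 1 each. For night, relative log expression size factors and leaving out CT0 or CT32 gave 5 each. For the second day, 1 fit over all 36 libraries, the midgut covariate and leaving out CT0, CT8, CT24 or CT32 gave 1 each. In per0, DESeq2 called 5 for any time and 2 for 12 h, and 1 fit over all libraries 1 for 12 h. Leaving out CT32 gave 1 for any time and 0 for late day, leaving out CT4 1 for late day, and leaving out CT8 gave 5 for late day, 2 for 12 h and 1 for the second day. For interactions, DESeq2 called 5 for any time, 1 for 24 h, 2 for night and 1 for late day, genes with a mean of at least 10 CPM gave 2 for any time and 2 for night, and leaving out CT28 gave 2 for any time and 1 for night. Leaving out CT20 gave 1 for night and 1 for the second day, and CT32 1 for night. For per0 against w1118, DESeq2 called 4, genes with a mean of at least 10 CPM 3, relative log expression size factors 2, the gonad covariate 1, and leaving out CT12, CT16, CT28 or CT32 gave 1, 2, 1 and 2. Leaving out 1 library gave 2 to 3 for any time in w1118, 2 to 3 for 24 h, 0 to 1 for 12 h, 3 to 4 for night, 2 to 2 for late day and 2 to 3 for the second day; in per0 2 to 3, 0 to 0, 0 to 0, 0 to 0, 1 to 3 and 2 to 2 in the same order; for interactions 0 to 1 for any time, 0 to 0 for both rhythms, 0 to 2 for night, 0 to 0 for late day and 0 to 2 for the second day; and 0 to 1 for per0 against w1118. The cause was not tested. Over all genes, DESeq2 called 5522 for any time in w1118 where edgeR called 1426, 434 against 72 for 24 h, 1690 against 554 for night, 1760 against 632 for late day and 4915 against 2121 for the second day. In per0 it called 4171 against 1061, 103 against 0, 527 against 17 and 1991 against 980 for the first 4 of these, and 3598 against 45 for the interaction with any time. Of 105 called results of other pathway genes, tried after the data were seen, 806 of 3945 alternative values lost the call and 1 reversed, the late day difference of crc in per0 at -0.13 log2 without CT32. With 2 libraries per group, 1 pool can decide a value, and where a duplicate is left out the lone library is assumed to vary like the others.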

Other observations

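Sugar sensing and stress genes were followed beside the insulin and TOR genes. In per0, of 4 sugar sensing genes, sug (1.35 ± 0.26 log2, adjusted p = 0.0154) and cbt, a zinc finger factor (0.80 ± 0.20 log2, adjusted p = 0.0317), were higher in late day and Mondo, the sugar-responsive transcription factor that acts with Mlx (bigmax), was lower (-0.95 ± 0.24 log2, adjusted p = 0.0337). Without the mixed library all 3 were called, but over the 18 fits that left out 1 library the call held in 16 for sug, 11 for cbt and 1 for Mondo. In w1118 the late day differences were 0.61 ± 0.25 log2 for sug, -0.60 ± 0.28 for cbt and -0.07 ± 0.20 for Mondo (adjusted p = 0.195, 0.245 and 0.858), and the interaction tests of the 3 gave adjusted p-values of 0.680, 0.327 and 0.547 in that order. At night in w1118 Mondo was lower (-0.74 ± 0.17 log2, adjusted p = 0.0331). Of 5 integrated stress response genes, crc, the fly ATF4, was higher on the second day in w1118 (0.40 ± 0.13 log2, adjusted p = 0.048) and in per0 (0.55 ± 0.13 log2, adjusted p = 0.0118), calls that held in 11 and 15 of 18 such fits.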
